A study of Homo sapiens with 6 samples.

Results

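The EGF family ligands and ERBB receptors were followed in LX-2 cells treated with IGFBP-7. The family was defined by a list of 10 gene symbols, 6 ligands (HBEGF, AREG, EREG, TGFA, NRG1 and BTC), the receptors EGFR, ERBB2 and ERBB3, and ERRFI1, an inhibitor of these receptors. Rows for 9 of the 10 were found among the 16569 genes of the deposited table, and EGFR was not analysed here. LX-2 is an immortalised line of human hepatic stellate cells, the liver pericytes that become matrix-producing myofibroblasts after injury. The IGFBP-7 group, 3 libraries, received 100 ng/mL of recombinant IGFBP-7, a secreted protein of the IGF-binding protein family, and the PBS group, 3 libraries, received phosphate-buffered saline, each for 24 h. All cells were wild type, were grown in DMEM with 2% fetal bovine serum and had been kept without serum for 18 h before treatment. A single cell line was used. Since nothing in the labels says whether libraries of 1 group came from different cultures, the p-values reflect variation among these 6 libraries, part or all of which may be technical.

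EGF family ligands are made as membrane-anchored precursors that proteases of the ADAM family cut to release the soluble factor. HBEGF, AREG, EREG, TGFA, BTC and EGF bind EGFR, and some of them, HBEGF, EREG and BTC, also bind ERBB4. The neuregulins bind ERBB4, and some of them, such as NRG1, also bind ERBB3. ERBB2 has no ligand of its own and is the preferred dimer partner of the other receptors, and ERBB3 has little kinase activity and signals through such dimers. The active receptors feed the RAS-ERK and PI3K-AKT pathways, and ERK activity induces ERRFI1 and phosphatases that switch the signal off again. In liver, ligands of this family act on hepatocytes and on stellate cells after injury.

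Values are the authors' normalized counts, in which reads per gene were divided by 1 factor per library, and the IGFBP-7 libraries held 45242993 to 55479940 recovered reads and the PBS libraries 40599380 to 43537923. A level of 3 sequenced fragments corresponded to 2.54 to 3.20 normalized counts. Genes with a mean of 10 or more in all libraries together were tested with limma on log2(normalized count + 1), and a gene was called changed at a Benjamini-Hochberg adjusted p under 0.05 over the 11872 genes tested. Log2 changes are IGFBP-7 minus PBS ± standard error on that scale, which generally understates the change of low genes but can overstate it where a library is at 0. Of the stellate marker list, 10 of 12 genes had a row and 8 averaged at least 100. Of the 10, 7 were called higher and 2 lower, where 31.3% of all tested genes were higher and 29.2% lower. COL1A1 was higher, with 198928 ± 8843 in IGFBP-7 and 49614 ± 1794 in PBS libraries (mean ± SD, n = 3 each). THY1 was lower, averaging 5714 with IGFBP-7 and 6908 with PBS, as was HAND2, at 70.8 with IGFBP-7 and 107 with PBS. The desmin gene DES was between 0 and 4.09 in IGFBP-7 libraries and at 0 in PBS libraries. Lists of other cell types were mixed. Of 5 hepatocyte genes with a row, SERPINA1 alone was tested, at 227 with IGFBP-7 and 252 with PBS (limma adjusted p = 0.396), and ALB reached at most 3.39 in IGFBP-7 and 2.14 in PBS libraries. The hepatocyte sum was 215 to 255 in IGFBP-7 and 236 to 284 in PBS libraries. The 8 epithelial genes summed to 37841 to 43939 in IGFBP-7 and 27638 to 28460 in PBS libraries, mostly KRT8 and KRT18, with 3 higher, while EPCAM reached at most 10.2 in IGFBP-7 and 6.41 in PBS libraries. The 6 endothelial genes summed to 435 to 504 in IGFBP-7 and 324 to 359 in PBS libraries, with PECAM1 and TEK higher. VWF, KDR and STAB2 did not pass, and STAB2 averaged 15.5 with IGFBP-7 and 28.0 with PBS (limma adjusted p = 0.103). CDH5, which was not tested, averaged 0 with IGFBP-7 and 9.72 with PBS. The 6 leukocyte genes summed to 1736 to 2014 in IGFBP-7 and 3280 to 3368 in PBS libraries. Of these, CD68 averaged 1466 with IGFBP-7 and 2863 with PBS, CD14 86.0 with IGFBP-7 and 399 with PBS, and CSF1R 293 with IGFBP-7 and 56.5 with PBS, all 3 called changed, while PTPRC reached at most 6.77 in IGFBP-7 and 10.7 in PBS libraries. The part of these genes in the results was not tested. In bulk RNA, fewer cells expressing a gene and less RNA per cell cannot be told apart.

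Of the 8 members that could be tested, HBEGF rose and 7 fell with IGFBP-7. The falls were in 4 ligands (EREG, AREG, BTC and NRG1), in both receptors with a row and in ERRFI1. Among all 11872 genes, 60.6% were called, 31.3% higher and 29.2% lower, which is 3721 and 3471 genes, against 2435 higher and 4176 lower with scaling to the library total. The 8 members also had no overlap between the groups, as had 63.5% of all tested genes. TGFA averaged under 10 and was not tested. EREG and BTC averaged under 10 in IGFBP-7 libraries and entered the test only through their PBS level. The direction of their difference, though not its size, was thereby fixed. Of the 6 members that averaged at least 10 in each group, 1 rose and 5 fell. The median log2 change was -0.83 over these 6, -1.34 over all 8 tested members and 0.02 over all genes tested.

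**Figure D1:**
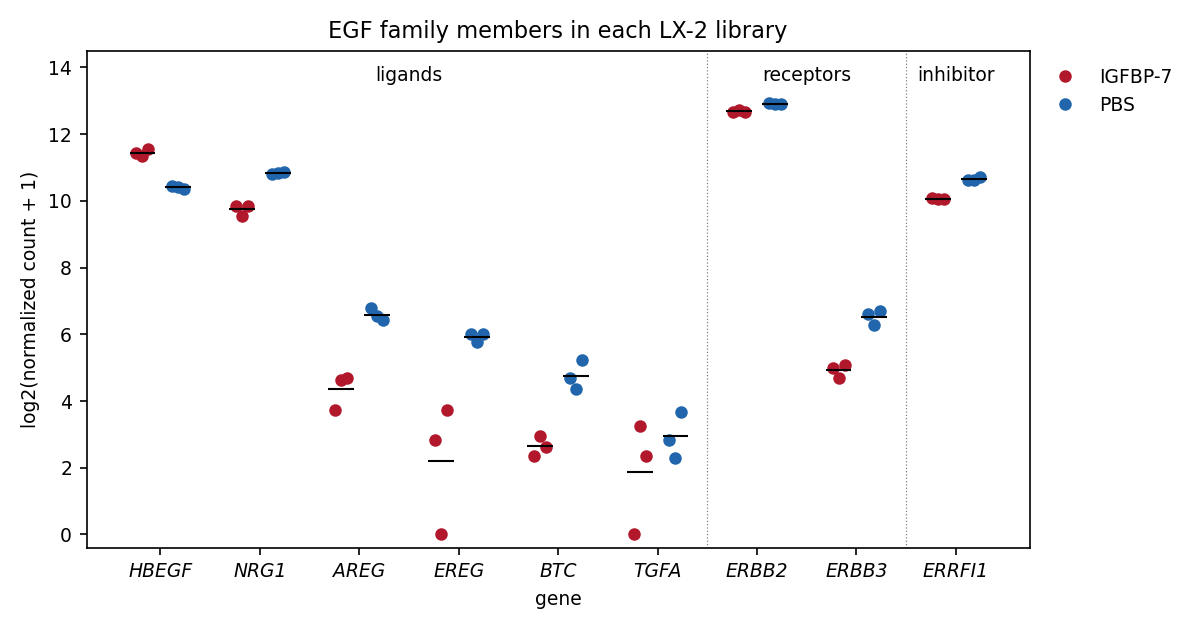
Log2(normalized count + 1) of the 9 members in each library, with IGFBP-7 libraries in red on the left of each pair and PBS libraries in blue on the right, and a black bar at the mean of 3 libraries. HBEGF alone of the tested members is higher in IGFBP-7 libraries, and TGFA is the only member whose groups overlap.

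HBEGF encodes heparin-binding EGF-like growth factor, a ligand that is held at the cell surface and in matrix by heparan sulfate. It had 2787, 2580 and 2977 normalized counts in the IGFBP-7 libraries, against 1394, 1371 and 1315 in the PBS libraries. All 3 IGFBP-7 libraries lay above all PBS libraries. The log2 change was 1.03 ± 0.07, a 2.04-fold rise with a 95% interval of 0.89 to 1.17 on the log2 scale (limma adjusted p = 7.87e-19). Of the 3721 genes that rose, 576 rose more than HBEGF on the log2 scale. Group means were 2781 ± 198 normalized counts with IGFBP-7 and 1360 ± 40.8 with PBS (SD, n = 3 each).

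NRG1 encodes neuregulin 1, a ligand of ERBB3 and ERBB4 that exists in many isoforms, which a gene-level count does not separate. Its values were 923, 753 and 920 normalized counts in the IGFBP-7 libraries, against 1781, 1808 and 1850 in the PBS libraries. Each IGFBP-7 library lay well below the PBS libraries, and IGFBP-7 replicate 2 was the lowest. The log2 change was -1.07 ± 0.08, or 2.10-fold lower (limma adjusted p = 6.80e-17). The within-library ratio of HBEGF to NRG1 normalized counts does not depend on how libraries are scaled to each other. As it was chosen after HBEGF was seen to rise and NRG1 to fall, its p-value is not counted as support. It was 3.02, 3.43 and 3.24 in the IGFBP-7 libraries and 0.783, 0.758 and 0.711 in the PBS libraries. The mean log2 ratio thus differed by 2.10 between the groups (exact permutation test, two-sided, p = 0.1, the smallest that 3 against 3 libraries allow).

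EREG, AREG and BTC encode epiregulin, amphiregulin and betacellulin, and each was low in this line and lower still with IGFBP-7. Epiregulin and betacellulin bind both EGFR and ERBB4, and amphiregulin binds EGFR. EREG had 6.13, 0 and 12.4 normalized counts in the IGFBP-7 libraries, against 63.8, 53.0 and 63.0 in the PBS libraries. These come from 18 fragments in the IGFBP-7 libraries and 175 in the PBS libraries, a level 10.4 times lower with a 95% counting interval of 6.38 to 17.9. EREG passed the filter only through its PBS level, so its p-value after that filter is not counted as support. The log2 change of EREG was -3.73 ± 0.60 (limma adjusted p = 4.13e-07, or 1.34e-05 without a filter). It was -2.64 without IGFBP-7 replicate 2, the library at 0, and -4.51 without IGFBP-7 replicate 3, the highest of that group, with the call kept in each case. With a pseudocount of 5 it was -2.71, and edgeR on the recovered reads gave -3.33. The weakest call came from DESeq2 on the recovered reads, at -3.29 with a standard error of 1.30 (DESeq2 adjusted p = 0.0210).

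AREG had 12.3, 23.7 and 24.8 normalized counts in the IGFBP-7 libraries, against 110, 92.3 and 85.4 in the PBS libraries. The groups were far apart, with 64 fragments in all with IGFBP-7 and 281 with PBS. AREG changed by -2.24 ± 0.32 on the log2 scale, or 4.73-fold lower (limma adjusted p = 3.74e-08). Earlier assemblies carried a near-identical second copy of this gene, and the build behind the counts was not given in the sources used here, so the level of AREG is uncertain. BTC had 4.09, 6.77 and 5.17 normalized counts in the IGFBP-7 libraries, against 24.7, 19.6 and 36.3 in the PBS libraries. Its 17 fragments with IGFBP-7 and 78 with PBS correspond to a level 4.90 times lower, with a 95% counting interval of 2.88 to 8.84. BTC also passed the filter only through its PBS level, so its p-value after that filter is not counted as support. The log2 change of BTC was -2.11 ± 0.57 (limma adjusted p = 0.00136, or 0.00184 without a filter).

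TGFA encodes transforming growth factor alpha, a classical EGFR ligand of epithelia. It was near the detection floor in every library, with 0, 8.47 and 4.13 normalized counts in the IGFBP-7 libraries and 6.18, 3.93 and 11.7 in the PBS libraries. The groups overlapped, and 14 fragments with IGFBP-7 against 21 with PBS correspond to 0.624 times the PBS level (95% counting interval 0.293 to 1.29). A difference in TGFA was not detectable at this depth.

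EPGN, EREG, AREG and BTC follow each other on chromosome 4 with no other protein-coding gene between them in the RefSeq annotation of GRCh38.p14. EPGN, which encodes epigen, another EGFR ligand, is not among the members. It had 3.07, 1.69 and 2.07 normalized counts in the IGFBP-7 libraries and 2.06, 7.86 and 21.4 in the PBS libraries, and as these overlap it joins the others only in its lower mean. Of the next protein-coding genes on either side, MTHFD2L changed by -0.38 and PARM1 by -0.30 on the log2 scale (limma adjusted p = 0.00302 and 0.679). One gene further out, the chemokine gene CXCL2 beyond MTHFD2L averaged 51.7 normalized counts with IGFBP-7 and 254 with PBS, a log2 change of -2.26, and RCHY1 beyond PARM1 changed by 0.37 (limma adjusted p = 4.81e-14 and 0.000118). A fall of that size was therefore not confined to the ligand genes of this stretch.

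The 250 bases before the RefSeq start are shown for the neighbours AREG and EREG, which fell, and for HBEGF, which rose, so that the ligand promoters can be set side by side. They were read from RefSeq (GRCh38.p14), where 7 of the 9 members had an entry of that length, TGFA with 2 starts. Capitals mark matches, on either strand, to the motifs searched: the cyclic AMP response element TGACGTCA, the AP-1 site TGANTCA, the TEAD site GGAATG, the EGR site GCGTGGGCG and the SMAD palindrome GTCTAGAC. All sequences run 5′ to 3′ on the strand of the gene.
AREG, chr4:74444886-74445135, plus strand: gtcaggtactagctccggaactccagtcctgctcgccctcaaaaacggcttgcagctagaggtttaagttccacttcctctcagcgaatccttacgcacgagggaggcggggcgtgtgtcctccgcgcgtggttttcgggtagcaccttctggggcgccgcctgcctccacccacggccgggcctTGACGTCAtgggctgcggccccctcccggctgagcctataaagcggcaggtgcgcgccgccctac
EREG, chr4:74364895-74365144, plus strand: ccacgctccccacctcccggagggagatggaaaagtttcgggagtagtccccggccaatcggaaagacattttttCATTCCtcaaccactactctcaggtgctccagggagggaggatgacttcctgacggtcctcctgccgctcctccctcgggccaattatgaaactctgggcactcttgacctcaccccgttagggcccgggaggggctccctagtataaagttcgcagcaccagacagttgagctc
HBEGF, chr5:140346604-140346853, minus strand: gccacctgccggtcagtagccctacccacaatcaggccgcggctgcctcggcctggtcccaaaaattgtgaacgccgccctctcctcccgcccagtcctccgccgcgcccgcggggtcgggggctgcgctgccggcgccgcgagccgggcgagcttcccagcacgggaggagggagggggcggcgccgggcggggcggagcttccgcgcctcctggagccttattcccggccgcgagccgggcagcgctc
The AREG window held 1 cyclic AMP response element, 65 to 58 bases before the start, a motif found in 1.65% of 35116 promoter windows of the same length. EREG held 1 TEAD match, in reverse orientation as CATTCC, 175 to 170 bases before the start, and 11.9% of all windows held this short motif. HBEGF held none of the 5 motifs. Outside these, ERBB2 had 1 match to the AP-1 letters, as TGATTCA, and BTC, TGFA and ERRFI1 had no match. TGANTCA, with any base at N, was in 6.57% of all windows. The EGR and SMAD motifs, present in 0.72% and 0.182% of windows, matched no member. Matches of letters in this window are a description and say nothing of factor binding. GC content of the windows was 65.2% for AREG, 58% for EREG and 76.4% for HBEGF.

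ERBB2, the receptor without a ligand of its own, had 6505, 6719 and 6477 normalized counts in the IGFBP-7 libraries, against 7829, 7699 and 7700 in the PBS libraries. The groups were separate and close. ERBB2 fell by 0.24 ± 0.05 on the log2 scale, or 1.18-fold (limma adjusted p = 3.31e-05). In the GENCODE 29 annotation 571 and 194 of its 10321 exonic bases also belong to MIEN1 and PGAP3 on the opposite strand, and whether reads were counted by strand was not given in the sources used here, so the ERBB2 value is uncertain to that extent. MIEN1 changed by -0.29 and PGAP3 by 0.31 on the log2 scale (limma adjusted p = 0.000134 and 0.0161).

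ERBB3, the neuregulin receptor with little kinase activity, had 30.7, 24.6 and 33.1 normalized counts in the IGFBP-7 libraries, against 96.8, 76.6 and 104 in the PBS libraries. No library of one group came near the other. The log2 change was -1.62 ± 0.29, or 3.06-fold lower (limma adjusted p = 3.23e-06). The log2 ratio of ERBB3 to ERBB2 within a library was -7.76 ± 0.24 with IGFBP-7 and -6.39 ± 0.22 with PBS (SD, n = 3 each). The difference was -1.38 (exact permutation test, two-sided, p = 0.1), for a ratio chosen after the values were seen. ERBB4, the remaining receptor of the family, was close to absent, with 0, 3.39 and 0 normalized counts in the IGFBP-7 libraries and 6.18, 0 and 8.54 in the PBS libraries.

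ERRFI1, also known as MIG6, encodes a protein that binds the kinase domain of ERBB receptors and blocks it, and is itself induced by EGF signalling. It had 1081, 1064 and 1073 normalized counts in the IGFBP-7 libraries, against 1574, 1575 and 1664 in the PBS libraries. The IGFBP-7 libraries were all below the PBS libraries. Their SD was 0.786% of their mean, less than the 2.99% that counting error alone would give, so this closeness is no measure of precision. ERRFI1 fell by 0.58 ± 0.07 on the log2 scale, to 0.669 of its PBS level (limma adjusted p = 1.84e-09). Its log2 ratio to ERBB2, also chosen after the values were seen, was -2.61 ± 0.04 with IGFBP-7 and -2.27 ± 0.05 with PBS (SD, n = 3 each). The difference was -0.34 (exact permutation test, two-sided, p = 0.1).

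**Figure D2:**
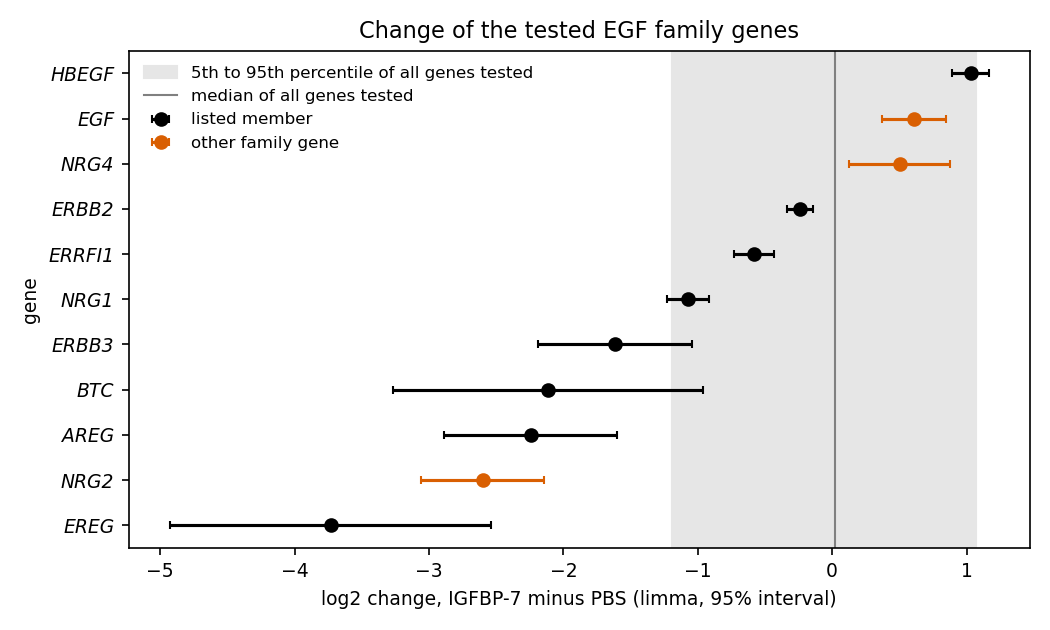
Log2 change, IGFBP-7 minus PBS, of the 8 tested members in black and of 3 other family genes in orange, with limma's 95% interval as bars. The grey band spans the 5th to 95th percentile of all genes tested, -1.19 to 1.07, and EREG, NRG2, AREG, BTC and ERBB3 lie below it, while HBEGF at 1.03 and NRG1 at -1.07 lie inside.

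Levels of different genes were set side by side per kilobase of the principal transcript of GENCODE 29, as the annotation behind the counts was not given in the sources used here. With IGFBP-7, ERBB2 had the highest level of the members, at 1445 ± 29.1 normalized counts per kb, followed by HBEGF (1166 ± 83.1), NRG1 (425 ± 47.8), ERRFI1 (345 ± 2.72), AREG (16.3 ± 5.60) and ERBB3 (4.97 ± 0.741). BTC, EREG and TGFA were lowest, at 1.90, 1.34 and 0.975 per kb, and each overlapped its neighbour in that order. With PBS, the order was ERBB2 (1704 ± 16.5), NRG1 (891 ± 17.0), HBEGF (570 ± 17.1), ERRFI1 (517 ± 16.6) and AREG (77.4 ± 10.3). ERBB3, EREG and BTC followed at 15.6, 12.98 and 9.55 per kb, where EREG overlapped both of its neighbours, and TGFA was last at 1.69. The order depends on the length taken, and this length was chosen after levels per kb of all annotated exons had been seen. Per kb of all annotated exons, NRG1 stood at 76.4 with IGFBP-7 and 160 with PBS, below ERRFI1 in each group. HBEGF then had 922 with IGFBP-7 and 451 with PBS, above ERBB2 with IGFBP-7 (636) but below it with PBS (750). The log2 ratio of HBEGF to ERBB2 in normalized counts, whose difference between groups needs no length, was -1.24 ± 0.13 with IGFBP-7 and -2.51 ± 0.03 with PBS. The difference was 1.27 (exact permutation test, two-sided, p = 0.1), for a ratio chosen after HBEGF was seen to rise and ERBB2 to fall.

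The ligands of EGFR with a row, 7 in number with EGF and EPGN included, summed to 1283, 1196 and 1364 normalized counts per kb in the IGFBP-7 libraries and to 756, 737 and 730 in the PBS libraries. HBEGF made up 90.4% to 91.5% of that sum with IGFBP-7 and 75.5% to 77.9% with PBS. AREG, EREG, BTC and TGFA together made up 0.988% to 1.96% with IGFBP-7 and 12.7% to 14.9% with PBS. EGF, the founding member of the family, held 6.54% to 7.77% with IGFBP-7 and 7.56% to 8.63% with PBS. NRG1, NRG2 and NRG4 together summed to 591 to 617 per kb in IGFBP-7 libraries and 1062 to 1112 in PBS libraries. Each IGFBP-7 library thus had a higher sum of EGFR ligand transcripts and a lower sum of neuregulin transcripts than any PBS library, also per kb of all annotated exons, where the neuregulin sum was 117 to 124 with IGFBP-7 and 228 to 240 with PBS.

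**Figure D3:**
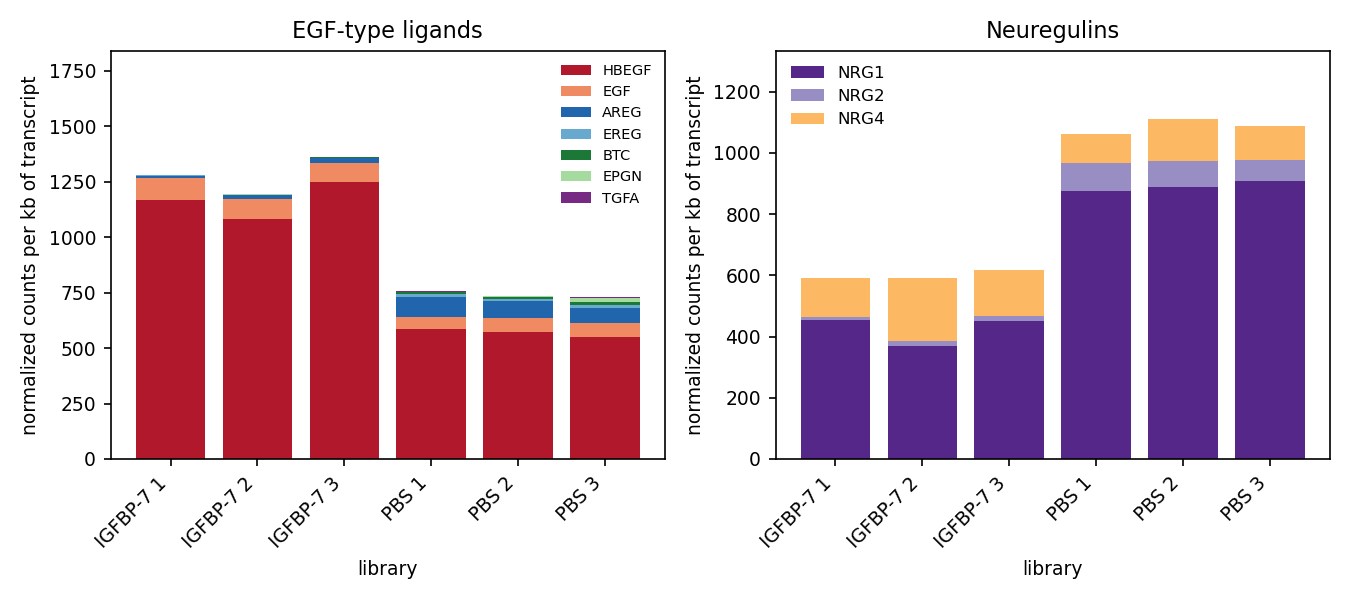
Normalized counts per kb of the principal transcript in each library, stacked by gene, for 7 EGFR ligands on the left and 3 neuregulins on the right, with the IGFBP-7 libraries before the PBS libraries. HBEGF takes 90.4% to 91.5% of the left bars with IGFBP-7 and 75.5% to 77.9% with PBS, and the neuregulin bars are 591 to 617 per kb with IGFBP-7 and 1062 to 1112 with PBS.

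Of 7 other family genes on a list of ligands and receptors, 5 had a row, 3 were tested, 2 rose and 1 fell. Of all tested genes 31.3% rose and 29.2% fell. EGF had 487, 439 and 435 normalized counts in the IGFBP-7 libraries, against 279, 303 and 308 in the PBS libraries, and rose by 0.61 ± 0.12 on the log2 scale (limma adjusted p = 1.58e-05). NRG2, which encodes neuregulin 2, had 29.6, 37.3 and 35.1 normalized counts in the IGFBP-7 libraries, against 239, 220 and 177 in the PBS libraries. It fell by 2.60 ± 0.23 on the log2 scale (limma adjusted p = 2.71e-14), so both NRG1 and NRG2 were lower. NRG4, which encodes neuregulin 4, a ligand of ERBB4, had 146, 241 and 176 normalized counts in the IGFBP-7 libraries, against 108, 159 and 126 in the PBS libraries. Its groups overlapped and its log2 change of 0.50 ± 0.19 passed in limma (adjusted p = 0.0174), but not with scaling to the library total (0.36, adjusted p = 0.106).

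Genes listed for ligand shedding and trafficking changed in both directions. Of 14 listed genes 9 were tested, namely 6 that rose and 3 that fell, and their median log2 change was 0.27. TIMP3, named after its values were seen, encodes a protease inhibitor and was among the 6 that rose. Among all genes tested, 31.3% rose and 29.2% fell. ADAM19, shown in mouse cells to cleave neuregulin precursors, had 6572 ± 254 normalized counts with IGFBP-7 and 1003 ± 38.2 with PBS, a log2 change of 2.71 ± 0.06. ADAM12, reported to cleave the HBEGF precursor, had 709 ± 73.0 with IGFBP-7 and 170 ± 26.2 with PBS, a change of 2.06 ± 0.13. RHBDF1, which encodes the rhomboid-like protein iRhom1 that escorts a sheddase through the secretory pathway, had 1449 ± 83.3 with IGFBP-7 and 2815 ± 159 with PBS, and the ADAM9 change was -0.47 ± 0.04. ADAM10, which sheds BTC and EGF in mouse cells, was named after its values were seen and rose by 0.29 ± 0.05, and ADAM17, the main sheddase of the other ligands, was not analysed here. The limma adjusted p of ADAM19, ADAM12, RHBDF1, ADAM9 and ADAM10 was at most 3.88e-07. With scaling to the library total 4 of the 9 rose and 3 fell.

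Genes downstream of the receptors also went both ways, as did all tested genes, of which 31.3% were higher and 29.2% lower. Of 25 adaptors and signal transducers 8 were tested, namely 4 that rose, 3 that fell and 1 that did not pass, and their median log2 change was 0.08. Scaling by library totals put that median at -0.06, with 3 higher and 4 lower. The largest rise was 0.43 ± 0.05 for NRAS, which encodes a RAS protein, and the falls included -0.87 ± 0.09 for the docking protein gene GAB2 and -0.31 ± 0.06 for MAPK3, which encodes ERK1. Of 24 genes of receptor down-regulation 10 were tested, namely 6 that rose and 4 that fell, with a median of 0.26. PTPRK, which encodes a receptor phosphatase that dephosphorylates EGFR, had 12443 ± 560 normalized counts with IGFBP-7 and 5940 ± 193 with PBS (log2 change 1.07 ± 0.05), and LRIG3 changed by 0.69 ± 0.11. CAV1, the caveolin gene, had 9967 ± 418 with IGFBP-7 and 19424 ± 105 with PBS (-0.96 ± 0.04), and SOCS5, an adaptor for receptor degradation, changed by -0.53 ± 0.06. The limma adjusted p of these 7 genes was at most 2.09e-05.

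Of 11 tested genes of ERK feedback, 7 were lower, 3 were higher and 1 missed the threshold (median log2 change -0.60), where 31.3% of all tested genes were higher and 29.2% lower. Scaling by library totals gave 8 lower and 2 higher, with a median of -0.74. DUSP6, which encodes the ERK-specific phosphatase, had 821 ± 50.3 normalized counts with IGFBP-7 and 1894 ± 41.6 with PBS, a change of -1.21 ± 0.08, and PHLDA1 changed by -1.64 ± 0.06. The rises included 0.46 ± 0.07 for DUSP7 and 0.38 ± 0.09 for DUSP1, which encode phosphatases of MAP kinases. Listed genes that EGF induces, mostly of transcription factors, were divided, with 9 of 18 tested higher, 6 lower, 3 not passing and a median of 0.16. Scaling to the library total gave a median of 0.02, with 7 higher and 7 lower. EGR2 and JUNB had the largest rises, 5.46 ± 0.17 and 2.80 ± 0.06, and FOSL1 and FOSL2 the largest falls, -1.98 ± 0.05 and -0.93 ± 0.05. Each of these 8 genes had a limma adjusted p of at most 0.0003. Across all genes tested the median log2 change was 0.02, and scaling to the library total moved it by -0.14.

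**Figure D4:**
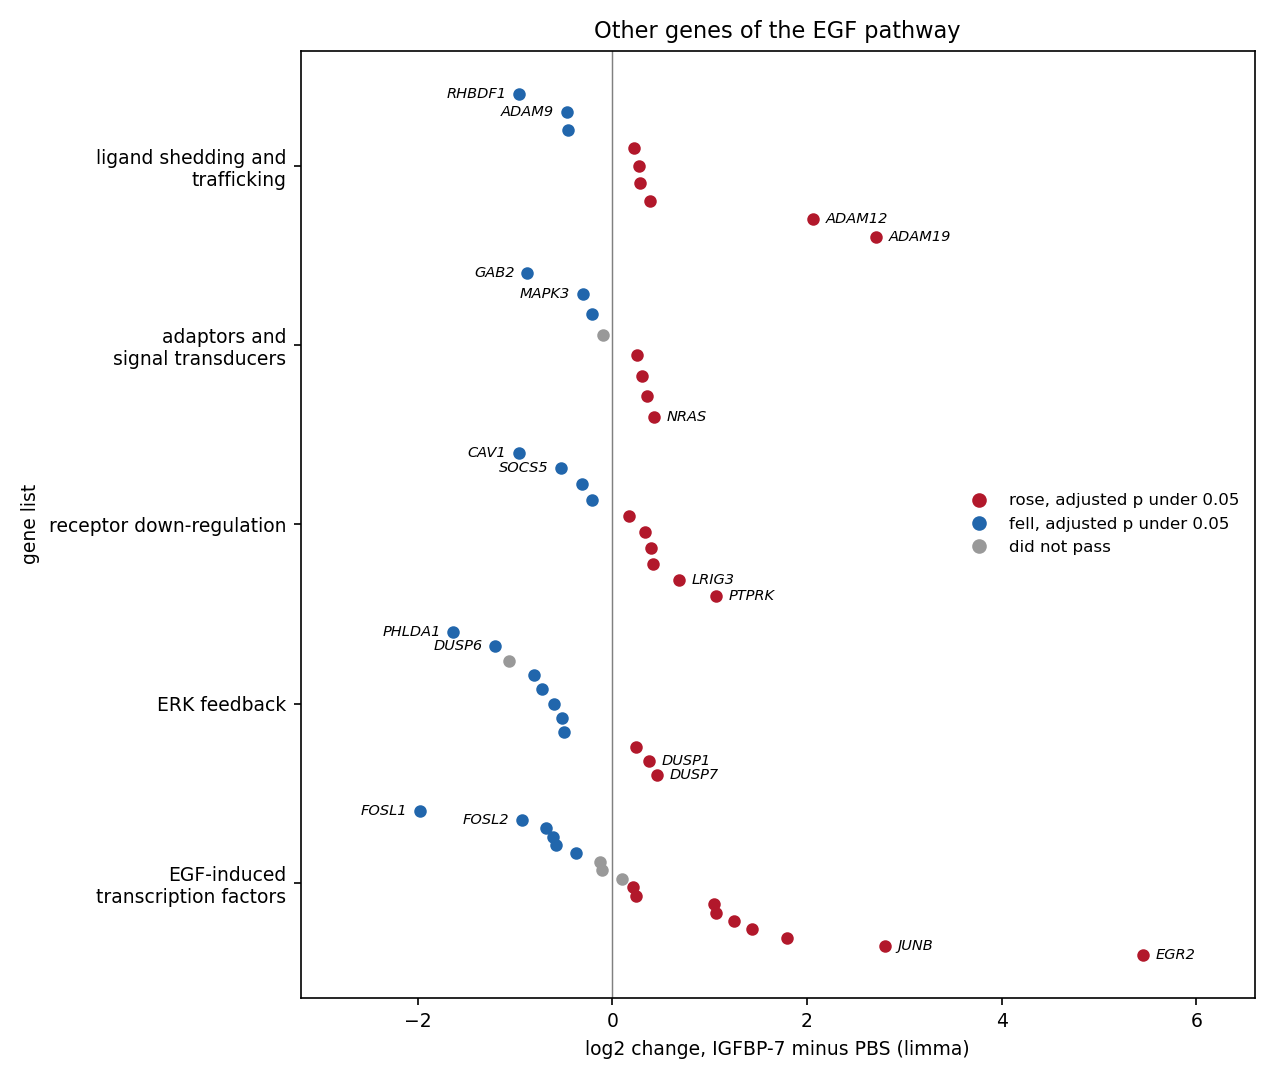
Log2 change, IGFBP-7 minus PBS, of each tested gene in 5 lists of the EGF pathway, 1 point per gene. Points are sorted within each list and coloured by the limma call. Genes described in the text are labelled, except ADAM10 and TIMP3. ERK feedback genes lie mostly to the left, with 7 of 11 lower against 29.2% of all tested genes. The EGF-induced genes, mostly of transcription factors, spread between -1.98 for FOSL1 and 5.46 for EGR2.

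The genes whose pattern over the 6 libraries was most like that of HBEGF, by the distance between log2 values centred on their own mean among 11864 other tested genes, were PPP1R14B-AS1, CCL2 and HHAT, at distances of 0.12, 0.12 and 0.13. CCL2, which encodes a monocyte chemokine, had 879 ± 63.0 normalized counts with IGFBP-7 and 435 ± 12.9 with PBS, and HHAT, which encodes an acyltransferase of Hedgehog proteins, had 757 ± 51.1 with IGFBP-7 and 363 ± 17.3 with PBS. Nearest to EREG were KRTAP2-3, LY6K and DRGX, at distances of 0.46, 1.39 and 1.83. LY6K had 16.8 ± 10.3 normalized counts with IGFBP-7 and 169 ± 9.07 with PBS. KRTAP2-3, at a log2 change of -3.65 ± 0.62, is uncertain because keratin-associated protein genes have near-identical copies. These distances describe 6 libraries in 2 groups, between which 60.6% of tested genes were called.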

How the data were processed

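Poly(A) RNA of LX-2 cells was sequenced in 3 IGFBP-7 and 3 PBS libraries, grouped by the sample titles. Per the file headers, the authors deposited normalized counts, a signal that is not log-transformed, with 1 column per library. Per the submitters' processing notes the tools were DESeq2, featureCounts, Subread and STAR, with no role stated. The build, annotation release and strand setting were not given in the sources used here. Of the per-sample columns, 0 were left unused.

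All values were whole multiples of 1 step per library (100% within 0.01), so reads were recovered; 99.6% of nonzero counts were even, and 2 reads were taken as 1 fragment. Intervals are exact, at 95%, and cover counting error only. Libraries of a group differed beyond sampling noise (chi-square per degree of freedom 5.10 to 6.93), so all were counted.

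The main test was limma-trend (limma 3.58.1, R 4.3.3), two-sided, on log2(normalized count + 1) of genes averaging at least 10, without covariates. edgeR 4.0.16 and DESeq2 1.42.0 on recovered reads were alternatives, and edgeR called 7103 and DESeq2 7108 genes, against 7192 with limma. The fits were tested on simulated data. The members and lists were chosen with earlier results of these data known. Listed genes were named by a rule, the 2 largest rises and 2 largest falls per list among called genes whose groups did not overlap, and 1 gene so named is not reported here. Of 5 within-library ratios, HBEGF to EREG was planned and the others were chosen after the values were seen, and the exact permutation p of each was 0.1, also after Benjamini-Hochberg adjustment. Planned ratios to EGFR were not computed. Same-numbered libraries did not deviate together. Levels per kb use the longest principal transcript of GENCODE 29, with all annotated exons as the other length, and the choice was made after levels per kb of all exons had been seen.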

Additional observations from a re-analysis of the deposited data

How the results depend on the processing

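Each of the 8 tested members kept its direction and its call under every alternative in which it was tested. These included edgeR on reads and on fragments (the last added after seeing the data), DESeq2, other pseudocounts and no filter. Quantile normalization, scaling to the library total and each library left out were also among them. EREG and BTC passed the mean filter only through their PBS level, so their calls after it are not counted as support. With a filter at a mean of 100, 4 members remained in the test and 4 were called, 3 of them lower, since AREG, EREG, BTC and ERBB3 lie under it. Scaling to the library total called 2435 genes higher and 4176 lower, against 3721 and 3471, and left 1 of the other family genes called higher in place of 2. The EREG change ranged from -4.51 to -2.64 and the BTC change from -2.34 to -1.60 over their alternatives. HBEGF exceeded EREG 454-fold and 240-fold in IGFBP-7 replicates 1 and 3 and 20.9-fold to 25.9-fold in the PBS libraries, and EREG was at 0 in IGFBP-7 replicate 2. The mean log2 ratio over all libraries therefore depends on the pseudocount: it differed by 4.76 with 1, 5.14 with 0.5 and 3.74 with 5, and by 3.72 to 5.49 with a library left out, the lowest without the library at 0 (exact permutation p = 0.2, the smallest for 2 against 3). With the replicate number as a block, 7177 genes and all 8 tested members were called, and the block gave the same HBEGF to EREG difference of 4.76 (exact sign-flip p = 0.25, the smallest possible). The correlation of deviations was -0.05 to 0.01 between same-numbered libraries and -0.03 to 0.07 between libraries of other numbers. No pairing by number was seen, though deviations from means of 3 libraries cannot settle whether samples were handled in pairs. Depth limits TGFA, EREG, BTC and ERBB4, which rest on few fragments.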
